A study of Mus musculus with 4 samples.

Results

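The cascade from RAS through RAF and MEK to ERK, the extracellular signal-regulated kinases, carries signals from growth factor and antigen receptors to the nucleus, and in B-cell progenitors it lies downstream of the pre-B-cell receptor and of cytokine receptors. Active ERK switches on immediate early genes within minutes, among them the transcription factors of the EGR and NR4A families. It also switches on its own inhibitors, which are phosphatases of the DUSP family that remove the activating phosphates from MAP kinases, and the Sprouty and Spred proteins, which act upstream at the level of RAS and RAF. The transcripts of these genes are therefore often read as a record of ERK output, although each of them has other inputs.

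The 10 genes examined were *Egr1*, *Egr2*, *Egr3* and *Nr4a1*, the phosphatase genes *Dusp2*, *Dusp4*, *Dusp5* and *Dusp6*, and the inhibitor genes *Spry1* and *Spred1*. They were taken by symbol as genes of the ERK early response and its feedback, and no measured value served as a criterion. Earlier results of these data were, however, known when they were chosen. All 10 had a row among the 55359 gene identifiers of the count table, and all 10 were among the 14637 genes with enough counts to be tested. Bulk RNAseq had been performed on T8 cells, a mouse pB-ALL (leukemia of B-cell progenitors) cell line from a tumor of an *Irf4*-/- animal, 24 h after transduction with a retrovirus. The control retrovirus (EV-RV) coded for GFP alone, and the other (IRF4-RV) for GFP plus IRF4, the transcription factor whose gene is deleted in these cells. Each group had 2 libraries, EV-RV 1 and 2 and IRF4-RV 1 and 2. The cells of both groups thus share the *Irf4*-/- genotype, the *Jak3* mutation of this tumor and the transduction itself. T8 is a line from a single tumor, so that the p-values measure only the spread between these libraries, and nothing states whether they came from separate transductions. By the study's account the cells collected were those still viable at that time, and the line had been grown on ST2 stromal cells before it grew without them. The study also reports that GFP-positive cells were lost over time with IRF4-RV but not with EV-RV. What this selection of viable cells contributed to the differences between the groups was not tested.

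The libraries held between 31230223 and 37817752 counts, and 3 counts, the lowest level taken as measurable, correspond to between 0.0824 and 0.0952 CPM (counts relative to the library size, scaled with TMM factors). This limit covers counting error only. *Irf4* had 8070 and 7600 counts in the controls, so that its locus was still counted in *Irf4*-/- cells, and 95578 and 90693 counts in the IRF4-RV libraries, where reads of vector and locus are not separated. The B lineage genes *Cd79a* and *Pax5* were high in each library, whereas *Rag1* and *Rag2* had at most 1 count each. *Cd79a* was between 906.4 and 921.9 CPM. *Pax5* was at 313.3 and 233.6 CPM with EV-RV and lower, at 233.4 and 183.2 CPM, with IRF4-RV, but was not called. Summed over 12 B-cell progenitor markers, the level was 3711 and 3845 CPM in the EV-RV libraries and 2756 and 2718 CPM in the IRF4-RV libraries. Of 10 tested, 4 were called lower (*Vpreb1*, *Igll1*, *Dntt* and *Il7r*) and 1 higher. The mitochondrial share of counts was 1.98% and 2.53% in the controls and 3.09% and 2.76% in the IRF4-RV libraries, higher in both of the latter. Of the other cell types looked for, stromal markers set 1 library apart. Summed over 8 stromal markers, of which *Lum* and *Dcn* were at or near 0, the level was 47.5 and 89.4 CPM in the EV-RV libraries and 47.0 and 221.2 CPM in the IRF4-RV libraries, highest in IRF4-RV 2. *Col1a1*, for example, had 496 and 850 counts against 528 and 2265. The 8 T and NK cell markers summed to between 38 and 58 counts, with 3 of them at 0 in all 4 libraries. The 10 myeloid markers summed to 28 and 20 counts in the controls and to 99 and 91 in the IRF4-RV libraries, of which *Ly6g* made 71 and 58, while *Adgre1* and *S100a8* were at 0 throughout. The 6 erythroid markers summed to between 408 and 578 counts. The part of such cells, and of the mitochondrial share, in the results was not tested. In a bulk library, fewer cells with a transcript and less of it per cell cannot be told apart.

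With IRF4-RV the 10 genes did not move in a common direction. *Dusp4*, *Dusp5* and *Egr2* rose, *Dusp2*, *Dusp6*, *Spry1* and *Egr1* fell, and *Egr3*, *Nr4a1* and *Spred1* did not pass the test. Counts were tested with edgeR's quasi-likelihood test at an FDR of 0.1, adjusted over all 14637 genes. Of all genes tested, 29.7% were called in either direction, 16.0% higher and 13.7% lower, against 3 of the 10 genes higher and 4 lower. Of the calls over all genes, 53.8% were higher, or 37.8% when libraries were scaled by their size alone, which left the calls of the 10 genes as they were. The median log2 fold change of the 10 genes was 0.04, near that of all genes (0.0073), with values from -0.93 for *Spry1* to 1.31 for *Dusp5*. The CPM of the EV-RV and IRF4-RV libraries did not overlap for any of the 10 genes, 5 of them higher and 5 lower with IRF4-RV. Such a separation was common, as 61.3% of all genes tested showed it with 2 libraries in each group.

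**Figure D1:**
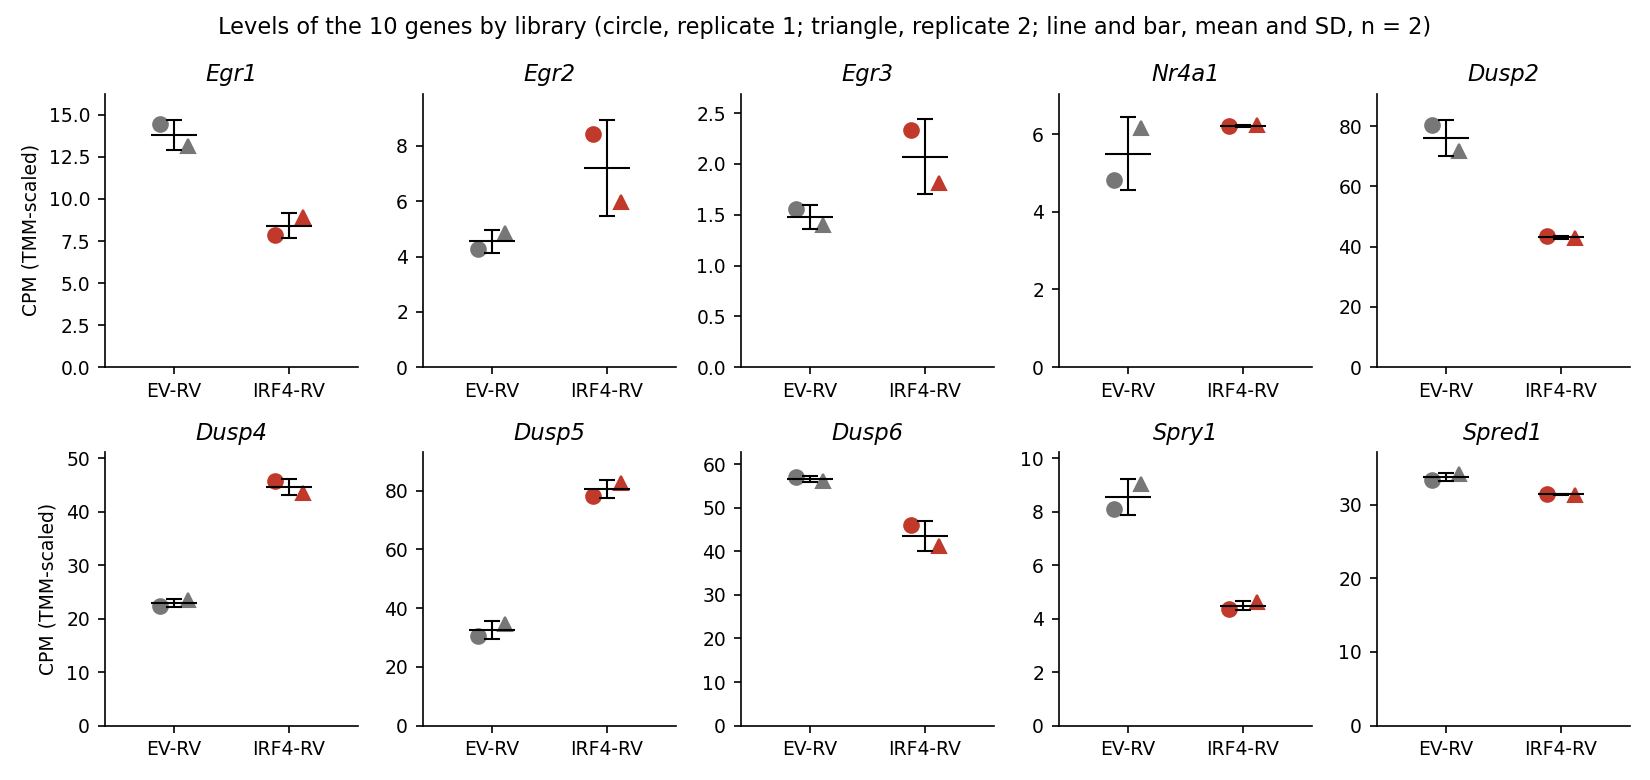
Each panel plots 1 gene, with CPM (TMM-scaled) on a linear axis from 0 and the 2 EV-RV and 2 IRF4-RV libraries as points, and the line and bar give the mean and SD. *Dusp4* and *Dusp5* lie above their EV-RV levels and *Dusp2*, *Dusp6*, *Spry1* and *Egr1* below, while *Nr4a1* and *Spred1* are separated only narrowly.

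The MAP kinase phosphatases changed in opposite directions, and all 4 passed the test. *Dusp5* and *Dusp4*, which encode inducible phosphatases of the nucleus, rose. *Dusp2*, which also encodes a nuclear phosphatase, fell, as did *Dusp6*, which encodes the ERK-specific phosphatase of the cytoplasm. *Dusp5* (ENSMUSG00000034765, GRCm38 chromosome 19, 53529109 to 53542431, plus strand, 4 exon blocks) encodes a phosphatase specific for ERK. It was at 30.5 and 34.7 CPM with EV-RV and at 78.2 and 82.6 CPM with IRF4-RV. Both IRF4-RV libraries lay far above both controls, and means were 32.6 ± 2.98 and 80.4 ± 3.11 CPM (SD, n = 2 each), a 2.47-fold rise. The log2 fold change was 1.31 ± 0.0948 (SE, edgeR adjusted p = 7.29e-05). An antisense gene, AC137853.2, shares 547 exon bases with *Dusp5* and had between 4 and 6 counts, against 1016 to 3009 for *Dusp5*.

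*Dusp4* (ENSMUSG00000031530, chromosome 8, 34807297 to 34819894, plus strand), whose product acts on ERK, JNK and p38, was at 22.4 and 23.5 CPM with EV-RV and at 45.7 and 43.6 CPM with IRF4-RV. Here too the groups were far apart compared with the replicates. The log2 fold change was 0.96 ± 0.0894 (SE, edgeR adjusted p = 0.000274), a 1.94-fold rise. *Dusp2* (ENSMUSG00000027368, chromosome 2, 127336159 to 127338376, plus strand), an early response gene of activated lymphocytes, went the other way. It was at 80.4 and 71.8 CPM with EV-RV and at 43.5 and 42.8 CPM with IRF4-RV, a fold of 0.567 and a log2 fold change of -0.82 ± 0.0887 (SE, edgeR adjusted p = 0.000571). Both IRF4-RV libraries were below both controls, and nearly at the same level as each other. *Dusp6* (ENSMUSG00000019960, chromosome 10, 99263231 to 99267489, plus strand) was at 57.1 and 56.2 CPM with EV-RV and at 45.9 and 41.1 CPM with IRF4-RV. This was a smaller drop, with a log2 fold change of -0.38 ± 0.0897 (SE, edgeR adjusted p = 0.0199), and without IRF4-RV 2 it was -0.30 and no longer called (edgeR adjusted p = 0.170, against at most 0.0577 under the other alternatives).

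The phosphatase transcripts were thus made up differently while their sum differed little. Per kilobase of exon, the 4 genes summed to 78.9 and 76.4 CPM per kb with EV-RV and to 84.7 and 83.8 CPM per kb with IRF4-RV. *Dusp2* held the largest share of this sum with EV-RV, 50.9% and 46.9%, against 25.6% and 25.5% with IRF4-RV. The share of *Dusp5* went from 15.6% and 18.4% to 37.4% and 39.9%, so that it was the most abundant of the 4 per length in both IRF4-RV libraries. *Dusp4* made up 10.4% and 11.2% of the sum in the EV-RV libraries and 19.7% and 19.0% in the IRF4-RV libraries. *Dusp6* went from 23.1% and 23.5% to 17.3% and 15.7%. The same could be seen in ratios within a library, which do not depend on the scaling between libraries. There were 0.534 and 0.617 counts of *Dusp5* per count of *Dusp6* in the EV-RV libraries and 1.70 and 2.01 in the IRF4-RV libraries. *Dusp4* had 0.279 and 0.327 counts per count of *Dusp2* in the EV-RV libraries and 1.05 and 1.02 in the IRF4-RV libraries. These shares and ratios are descriptions and were not tested.

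**Figure D2:**
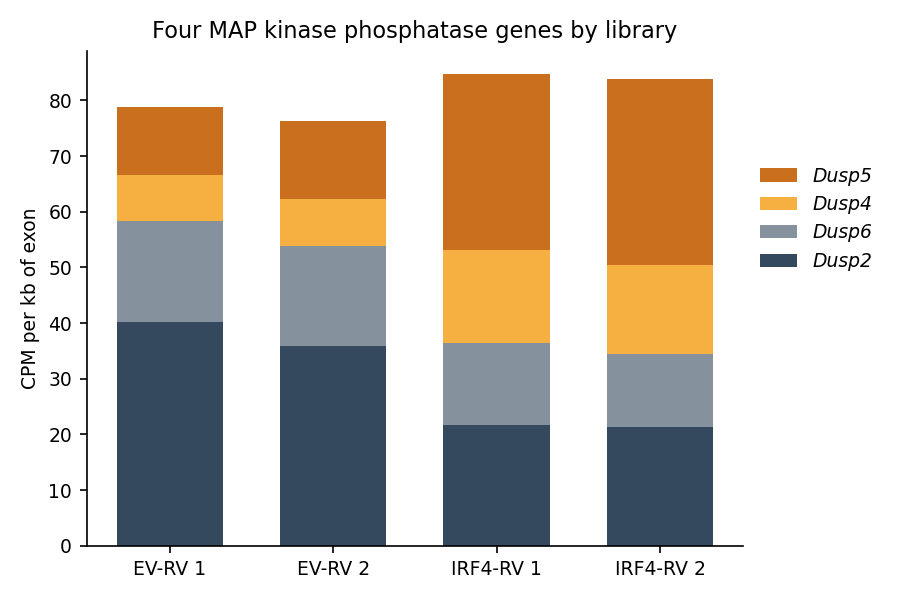
Stacked bars give the levels of *Dusp2*, *Dusp6*, *Dusp4* and *Dusp5* in each library, in CPM per kb of exon on a linear axis from 0. Total height runs from 76.4 to 84.7 CPM per kb, while *Dusp2* takes 46.9% or more with EV-RV and *Dusp5* 37.4% or more with IRF4-RV.

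Promoter sequences are shown for phosphatase genes that moved in opposite directions, from the RefSeq promoters of GRCm38.p6, which run from 250 bases before to 50 after a start site. Of the 10 genes, promoters of *Egr2*, *Nr4a1*, *Dusp2*, *Dusp5*, *Dusp6*, *Spry1* and *Spred1* were searched, and those of *Egr1*, *Egr3* and *Dusp4* were not. The stretches lie 130 to 41 bases upstream of the start, at chr19:53529015-53529104 for *Dusp5* and chr2:127336029-127336118 for *Dusp2*, both on the plus strand and before the first annotated exon of the gene, with that of *Dusp5* inside the exon of the antisense AC137853.2. Capitals mark CArG boxes, the DNA element bound by serum response factor (SRF), in *Dusp5* and an EGR site (GCGTGGGCG or GCGGGGGCG on either strand) in *Dusp2*.
Dusp5: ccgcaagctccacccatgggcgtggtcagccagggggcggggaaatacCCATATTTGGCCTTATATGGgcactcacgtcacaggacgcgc
Dusp2: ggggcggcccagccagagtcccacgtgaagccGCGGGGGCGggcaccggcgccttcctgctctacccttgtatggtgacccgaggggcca
*Dusp5* holds 2 adjoining CArG boxes, from -82 to -73 and from -72 to -63 relative to the start. A CArG box was found in 1.63% of 32851 RefSeq promoters, and an EGR site, here from -98 to -90 of *Dusp2*, in 3.47%. These matches describe letters and are not evidence of binding. The promoters of *Dusp6*, *Spry1* and *Spred1* held none of the motifs searched. Besides the above, these were the ETS core CCGGAA (14.9% of all promoters), the cyclic AMP response element TGACGTCA (1.79%), the AP-1 site TGANTCA (7.81%), the ETS-IRF composite element (GGAA, any 2 bases, then GAAA, 2.72%) and the interferon-stimulated response element (GAAA, any 2 bases, then GAAA, 3.44%), on both strands. The motifs in capitals do not overlap.

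The transcription factor genes of the early response lay below the phosphatase genes per length, at means of 0.335 to 3.08 CPM per kb with EV-RV against 8.39 to 37.98 for the phosphatases, and also divided. *Egr1* fell and *Egr2* rose, whereas *Egr3* and *Nr4a1* did not pass the test. *Egr1* (ENSMUSG00000038418, chromosome 18, 34859823 to 34864984, plus strand), a zinc finger factor that is among the first genes to respond to ERK, was at 14.4 and 13.2 CPM with EV-RV and at 7.88 and 8.95 CPM with IRF4-RV. Both IRF4-RV libraries were lower than both controls. *Egr1* had a log2 fold change of -0.71 ± 0.125 (SE, edgeR adjusted p = 0.00549), a fold of 0.61.

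*Egr2* (ENSMUSG00000037868, chromosome 10, 67535475 to 67542188, plus strand), a relative of *Egr1* with a similar DNA-binding domain, was at 4.26 and 4.85 CPM with EV-RV and at 8.42 and 5.96 CPM with IRF4-RV, from 142 to 285 counts per library. The IRF4-RV libraries were higher but also far from each other, with means of 4.55 ± 0.422 and 7.19 ± 1.74 CPM (SD, n = 2 each). The log2 fold change of 0.66 ± 0.198 (SE, edgeR adjusted p = 0.0494) rested on single libraries. Without IRF4-RV 1 it was 0.37 and without EV-RV 1 it was 0.56, and it was called in neither fit. The alternatives with all 4 libraries gave adjusted p-values (edgeR or DESeq2) from 0.000656 to 0.0912. The counts of *Egr2* per count of *Egr1* were 0.295 and 0.369 in the EV-RV libraries and 1.07 and 0.666 in the IRF4-RV libraries. *Egr1* was thus the more abundant in counts in 3 of 4 libraries, and *Egr2* in IRF4-RV 1. Per kilobase of exon, *Egr1* went from 3.08 ± 0.202 to 1.88 ± 0.169 CPM per kb and *Egr2* from 1.34 ± 0.124 to 2.12 ± 0.511 CPM per kb (SD, n = 2 each).

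*Egr3* (ENSMUSG00000033730, chromosome 14, 70077203 to 70082614, plus strand) had the fewest counts of the 10 genes, 52 and 44 in the controls against 79 and 66, or 1.56 and 1.40 against 2.33 and 1.81 CPM. Its log2 fold change of 0.49 was not called, and the 95% interval from -0.16 to 1.13 includes a change as large as that of *Egr2* (edgeR adjusted p = 0.262). *Nr4a1* (ENSMUSG00000023034, chromosome 15, 101254269 to 101274795, plus strand), an orphan nuclear receptor gene widely used as a reporter of antigen receptor signaling, was at 4.83 and 6.15 CPM with EV-RV and at 6.20 and 6.24 CPM with IRF4-RV. The groups were separated by less than the EV-RV libraries differed from each other. Its log2 fold change was 0.18 (95% interval -0.21 to 0.57, edgeR adjusted p = 0.493).

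The promoters of *Egr2* and *Nr4a1* are shown because the first rose and holds a CArG box and the second did not pass the test and holds an EGR site and an ETS core. The stretches cover the same distance upstream of a start, at chr10:67537739-67537828 and chr15:101266716-101266805, plus strand, with the motifs in capitals. Both lie within the annotated bounds of the gene and overlap no annotated untranslated region.
Egr2: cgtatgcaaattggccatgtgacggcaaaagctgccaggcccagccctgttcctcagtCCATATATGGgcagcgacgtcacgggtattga
Nr4a1: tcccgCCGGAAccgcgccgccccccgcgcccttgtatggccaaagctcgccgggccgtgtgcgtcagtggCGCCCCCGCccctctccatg
RefSeq gives 5 promoters for *Egr2*, and 4 of them hold a CArG box, but some of these overlap and hold the same box. An ETS core also lies in 1 of the 5, together with a CArG box, though not in the promoter shown. The box of the start shown lies from -72 to -63, the same distance as the second box of *Dusp5*, but this depends on the start chosen. Relative to neighboring starts, the same box lies from -73 to -64 and from -133 to -124. In *Nr4a1* the ETS core lies from -125 to -120 and the EGR site, read on the minus strand, from -60 to -52.

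Of the inhibitors that act on RAS and RAF, *Spry1* fell and *Spred1* did not pass the test. *Spry1* (ENSMUSG00000037211, chromosome 3, 37639947 to 37644598, plus strand), which encodes Sprouty-1, an inhibitor induced by receptor tyrosine kinase signals, was at 8.09 and 9.04 CPM with EV-RV and at 4.37 and 4.61 CPM with IRF4-RV. The IRF4-RV libraries were close to each other and well below the controls. This gave a log2 fold change of -0.93 ± 0.144 (SE, edgeR adjusted p = 0.00316), the largest drop of the 10 genes. Gm42922, on the opposite strand, shares 710 exon bases with *Spry1* and had between 1 and 16 counts, against 148 to 285 for *Spry1*. *Spred1* (ENSMUSG00000027351, chromosome 2, 117121374 to 117182279, plus strand), whose product brings the RAS inhibitor neurofibromin to the membrane, was at 33.4 and 34.1 CPM with EV-RV and at 31.4 and 31.3 CPM with IRF4-RV. Its log2 fold change of -0.10 had a 95% interval from -0.30 to 0.09 (edgeR adjusted p = 0.439). *Spry1* had 0.243 and 0.265 counts per count of *Spred1* in the EV-RV libraries and 0.139 and 0.147 in the IRF4-RV libraries.

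**Figure D3:**
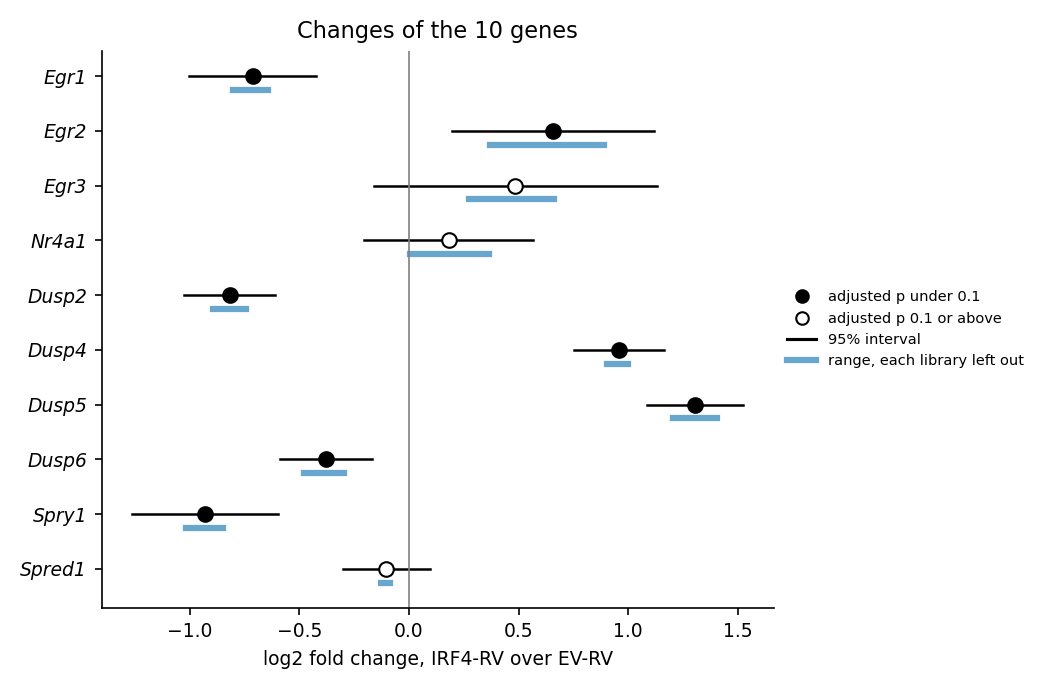
The log2 fold change of each of the 10 genes (IRF4-RV over EV-RV) is plotted with its 95% interval as a black line, filled where the adjusted p was under 0.1, and with the range over fits that leave out each library as a blue line. *Dusp5* at 1.31 and *Spry1* at -0.93 mark the ends, and the intervals of *Egr3*, *Nr4a1* and *Spred1* cross 0.

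Since IRF4-RV 2 stood apart in stromal markers, the fit was repeated without it. IRF4-RV then had no replicate and the spread came from the EV-RV libraries alone, so that only the size of the changes is given here. *Dusp5* was at 1.27, *Dusp4* at 0.998, *Dusp2* at -0.80, *Egr1* at -0.80, *Spry1* at -0.97 and *Egr2* at 0.89 on the log2 scale. *Dusp6* was at -0.30, and *Egr3*, *Nr4a1* and *Spred1* were at 0.66, 0.18 and -0.10. The direction of each of these genes was as in the full fit.

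Beyond the 10 genes, 90 genes of the same pathway and its neighbors were listed by role, of which 78 could be tested, 11 were too low and *Spry3* had no row. Of these 78, 18 were higher and 15 lower with IRF4-RV, with a median log2 fold change of 0.04. Over all genes tested the shares were 16.0% and 13.7%, as given above, and they are the background for the counts of each list below.

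Among 14 other immediate early genes tested, 4 were higher and 3 lower, with a median of 0.05. *Atf3*, a stress-induced factor, had the largest rise, from 2.97 and 2.79 to 21.9 and 25.5 CPM (log2 fold change 3.04, edgeR adjusted p = 8.12e-06). *Btg2*, an antiproliferative early gene, rose from 25.9 and 26.0 to 88.1 and 77.8 CPM (1.67, edgeR adjusted p = 2.47e-05). *Myc*, which drives growth and proliferation, fell from 279.4 and 282.8 to 141.8 and 123.0 CPM (-1.09, edgeR adjusted p = 0.000133). Of the AP-1 genes, *Jund* fell by 0.45 on the log2 scale. *Ier2* was lower by 0.35 but not called without IRF4-RV 1 (-0.31, edgeR adjusted p = 0.108, the highest of its alternatives).

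*Fos*, *Jun* and *Dusp1*, the first and last named after their values were seen, had IRF4-RV libraries that lay far from each other. *Fos* was at 20.7 and 17.9 CPM with EV-RV and at 10.7 and 25.2 CPM with IRF4-RV. *Dusp1*, an early phosphatase gene that is also induced by stress, was at 19.2 and 15.7 against 9.89 and 18.8 CPM. In both genes IRF4-RV 1 was the lowest of the 4 libraries, and the groups overlapped. Without IRF4-RV 2 the log2 fold changes of *Fos* and *Dusp1* were -0.85 and -0.81. Without IRF4-RV 1 they were 0.36 and 0.08, so that the direction depended on the library. *Jun* was at 1.05 and 1.05 CPM with EV-RV and at 1.59 and 4.53 CPM with IRF4-RV. Its log2 fold change of 1.55 (edgeR adjusted p = 0.0512) dropped to 0.61 without IRF4-RV 2 and was then not called, nor was it without EV-RV 1 (1.54) or EV-RV 2 (1.55). In these 3 genes IRF4-RV 2, the library with the highest stromal marker sum, was above IRF4-RV 1. The controls did not show the same order. EV-RV 2 had a higher stromal sum than EV-RV 1 (89.4 against 47.5 CPM). Yet *Fos* and *Dusp1* were lower in EV-RV 2, and *Jun* was at 1.05 CPM in both. The part of stromal cells in these values was not tested.

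**Figure D4:**
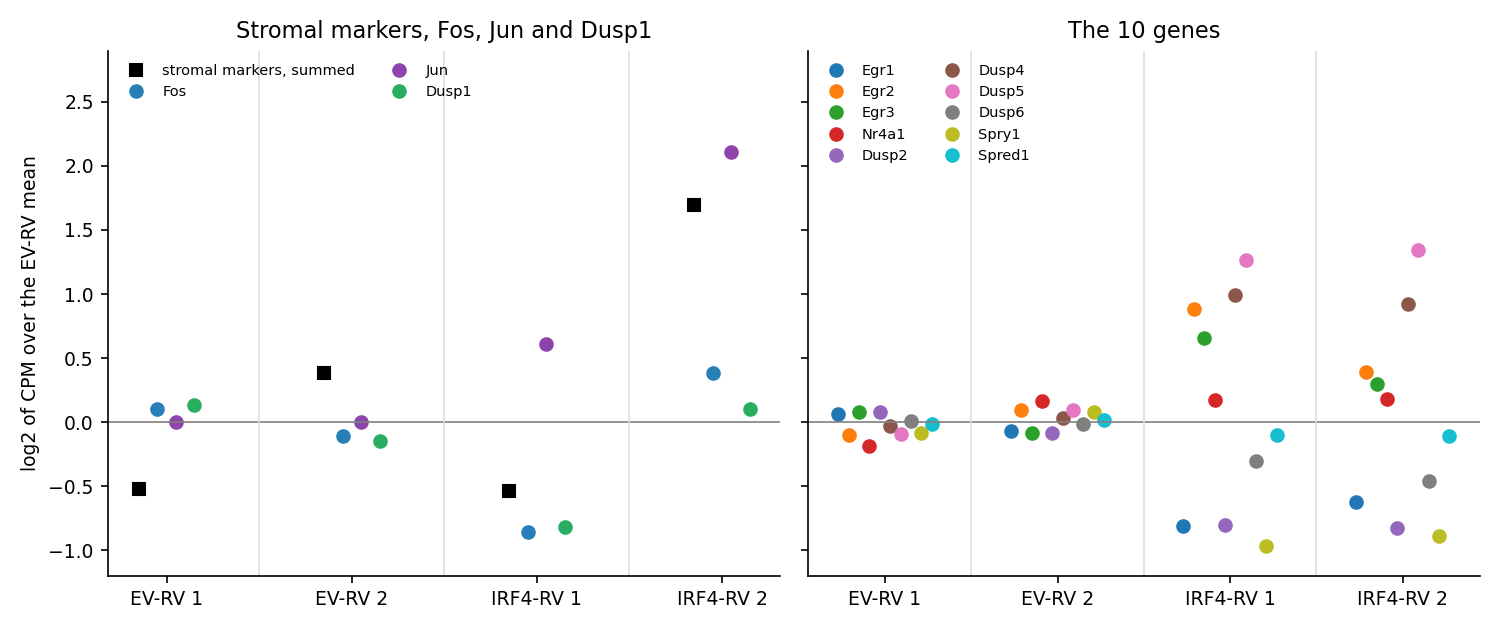
Each point is the CPM of 1 library over the mean of the EV-RV libraries, on a log2 axis, for the stromal marker sum, *Fos*, *Jun* and *Dusp1* at left and for the 10 genes at right. At left IRF4-RV 1 and 2 differ widely, with *Fos* at 10.7 and 25.2 CPM. At right *Dusp5* is at the top and *Spry1* at the bottom in both IRF4-RV libraries, while the order between them differs in part.

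Among the relatives of the 10 genes, *Dusp10*, whose product acts on JNK and p38, rose from 4.32 and 3.90 to 13.6 and 11.6 CPM (log2 fold change 1.62, edgeR adjusted p = 0.000236). *Dusp16*, another phosphatase gene for JNK, was called at 0.45, but neither without EV-RV 1 (0.29) nor without IRF4-RV 1 (0.35). These were 2 of 4 other phosphatase genes tested, the others being *Dusp1* above and *Dusp7*, which was at -0.34 (edgeR adjusted p = 0.109). Of 3 other Sprouty and Spred genes tested, *Spred2* fell by 0.49 on the log2 scale (edgeR adjusted p = 0.0159). *Spry4*, at -0.49, was called too (edgeR adjusted p = 0.0733), but not by DESeq2 (adjusted p = 0.222) nor without EV-RV 1, EV-RV 2 or IRF4-RV 1, where its log2 fold changes were -0.58, -0.41 and -0.39 and the largest adjusted p was 0.255. *Spry2* had a log2 fold change of 0.21 and was not called. Of 4 other EGR, NR4A and NAB genes, only *Nab1*, a corepressor of EGR factors, was called, at 0.35, and not without IRF4-RV 1 (0.28).

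Of 5 other transcripts used as readouts of MEK and ERK, 1 was called, near the 29.7% of all genes. This was the cytokine gene *Lif*, which rose from 2.43 and 3.39 to 9.89 and 8.27 CPM (log2 fold change 1.64, edgeR adjusted p = 0.00101). *Etv4* and *Etv5*, ETS factor genes that follow ERK activity in many cell types and were named after their values were seen, had log2 fold changes of 0.10 (95% interval -0.17 to 0.38) and 0.0044 (95% interval -0.17 to 0.18). *Etv5* changed sign under several alternatives and was not called in any of those run.

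In the cascade itself, 6 of 20 genes tested were higher and 1 lower, with a median of 0.16. The exchange factor genes *Rasgrp3* and *Sos1*, whose products load RAS with GTP, rose by 1.45 and 0.64 on the log2 scale (edgeR adjusted p = 0.00629 and 0.00742). *Rasgrp3* was low throughout, from 0.959 to 2.95 CPM. *Ksr1*, a scaffold gene of the cascade, was called at 0.86, but not by DESeq2 (0.86, adjusted p = 0.118) or without EV-RV 2 (0.65). *Hras* was lower by 0.45 and not called without EV-RV 2 (-0.32). Of 9 genes of RAS GTPase-activating proteins, which switch RAS off, 1 was higher and 2 lower, near the 29.7% called over all genes. *Rasal1* fell from 23.9 and 23.9 to 14.8 and 13.5 CPM (-0.76, edgeR adjusted p = 0.00149). *Rasa1* was lower by 0.34, and not called without EV-RV 1 (-0.29) or IRF4-RV 2 (-0.31).

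The genes of SRF and its partners also divided, with 3 of 6 tested higher and 1 lower. *Srf* fell from 84.7 and 77.3 to 63.2 and 57.9 CPM (-0.42, edgeR adjusted p = 0.0123). The ternary complex factor genes *Elk4* and *Elk1*, whose products are phosphorylated by ERK, and the coactivator gene *Mrtfb* rose by 0.60, 0.52 and 0.58 (edgeR adjusted p = 0.00203, 0.0115 and 0.0102). Of 7 genes of the JNK and p38 cascades, 2 were called, near the 29.7% over all genes, and both of them were lower. *Mapk8*, which encodes JNK1, fell by 0.86 (edgeR adjusted p = 0.000957) and *Mapk14*, which encodes p38α, by 0.45 (edgeR adjusted p = 0.0051). Of 6 heat shock genes tested, listed as a sign of handling stress, 4 were lower, among them *Hspa1a* at -1.05 and *Hspa1b* at -1.01, near-identical copies whose reads may be shared, and *Hsph1* at -0.31, which was not called without IRF4-RV 2 (-0.31).

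**Figure D5:**
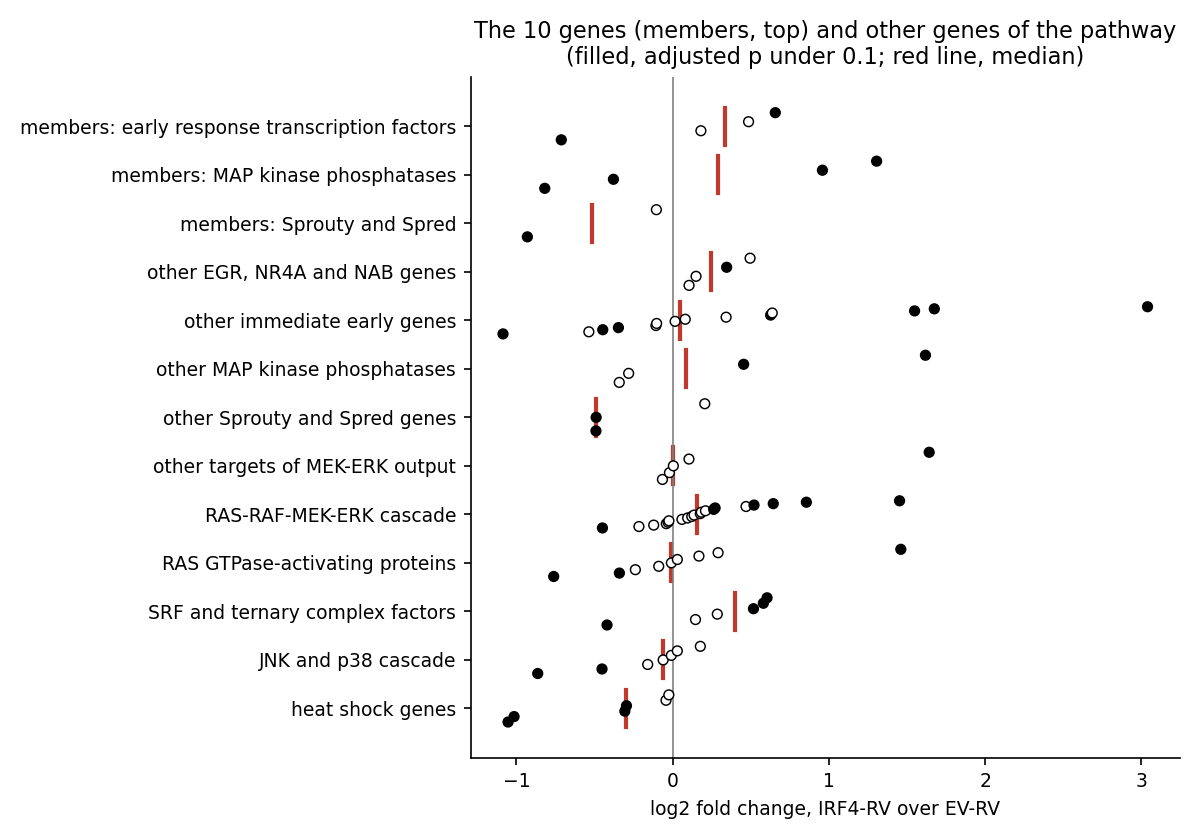
Each point is the log2 fold change (IRF4-RV over EV-RV) of 1 gene tested, filled where the adjusted p was under 0.1, by list, with the median of the list as a red line. The 10 genes fill the 3 lists at the top, and the medians of the other lists lie between -0.49 for the other Sprouty and Spred genes and 0.40 for SRF and its partners.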

How the data were processed

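Reads had been aligned to GRCm38 (STAR 2.4.0j) and counted per gene with featureCounts, and the authors deposited raw counts, whole numbers without normalization, for 55359 Ensembl identifiers. Strand and multimapping settings are not given in the sources used here. The labels' protocol text names T11 cells while titles and tissue name T8, which was followed. Symbols, positions and exon lengths came from GENCODE M21 on GRCm38, which held 52083 of the identifiers.

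Genes passing edgeR's filterByExpr were tested in R 4.3.3 with edgeR 4.0.16 (TMM factors, quasi-likelihood F test, group as the only term, Benjamini-Hochberg adjustment, FDR of 0.1). Standard errors and 95% intervals are approximate, derived from the F statistic. CPM per kb divides TMM-scaled CPM by the union of exons. The scripts were tested on simulated data. Alternatives were DESeq2 1.42.0, DESeq2 size factors, library size only, 2 other low-count filters, an FDR of 0.05, the replicate block and leaving out each library. With a library left out, its group has no replicate and the spread comes from the other group alone. Calls kept or lost in those fits do not cover the spread within that group. Replicates differed beyond sampling noise (chi-square per degree of freedom 15.2 for EV-RV, 14.3 for IRF4-RV).

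The 10 genes and the other lists were chosen with earlier results of these data known. Besides the 10 genes, *Irf4* and markers, up to 3 higher and 3 lower genes were named per list, those with the largest changes among genes called with a mean of at least 50 counts, and any others after their values were seen.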

Additional observations from a re-analysis of the deposited data

How the results depend on the processing

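Across the 11 alternatives run, 3347 to 6394 genes were called, against 4349. Of 110 values for the 10 genes, 107 kept direction and side of the threshold and 0 reversed. The 3 that lost the call were those of *Egr2* and *Dusp6* given above, which left 2 or 3 genes higher and 3 or 4 lower. The other pathway genes called ranged from 14 to 25 higher and from 13 to 20 lower. Scaling by library size alone lowered the share of calls that were higher from 53.8% to 37.8% and put the median of all genes at -0.0832. Among 31 other named genes, 312 of 341 values kept direction and call. Reversals were seen for *Fos* (-0.85 to 0.36 with each library left out), *Dusp1* (-0.814 to 0.0839) and *Etv5*, which was -0.0013 with DESeq2 size factors, -0.0868 with library size only, -0.0109 with at least 1 CPM in 2 libraries and -0.0387 to 0.0318 with each library left out. The cause was not tested. With the replicate block, 6394 genes were called, including the same number of the 10 genes (3 higher and 4 lower), and *Dusp1* was called at -0.33. Deviations of same-numbered libraries correlated at 0.26, and with 2 pairs and no shared batch in the labels the numbers were not taken as pairs. At 44 to 79 counts per library, *Egr3* had the least depth.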
